A study of Homo sapiens with 6 samples.

Results

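RBMX, RPA1 and the 8 annotated copies of RBMX were examined for peaks in 4 chromatin immunoprecipitation lists from 293T cells, a human embryonic kidney line. RBMX and RPA1 are the genes whose proteins were put into the cells with a Flag tag, and the copies are the coding genes RBMXL1, RBMXL2 and RBMXL3 and the pseudogenes RBMXP1 to RBMXP5. A peak belonged to a gene when it overlapped the gene or lay within 10 kb of it on hg38. By that rule 22 of the 1743 peaks of the 4 lists were at these 10 genes, of 59716 annotated genes in all. RBMX replicate 1 contributed 5 of its 258 peaks, RPA1 replicate 1 contributed 9 of 360, RBMX replicate 2 contributed 6 of 598, and RPA1 replicate 2 contributed 2 of 527.

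Each precipitation used beads against Flag, on cells transfected with Flag-RBMX or Flag-RPA1 and held in camptothecin, which traps topoisomerase I on DNA, for 24 hours. Every group had camptothecin, and no untransfected or untreated cells were compared. There were 2 precipitations per protein with 1 peak list each, and 2 inputs that were not analysed here. The labels do not say whether the replicates were separate cultures, what promoter drove the constructs or whether they held the spliced coding sequence. Replicate 1 had 20199680 tags of 50 bp for RBMX and 20089972 for RPA1, and replicate 2 had 6664290 and 6889249 tags of 150 bp. The replicates also differed in peak caller and threshold, so replicate and processing cannot be told apart.

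RBMX, also called hnRNP G, is an X-linked RNA-binding protein of the hnRNP family that takes part in splicing and has been linked to the response to DNA damage. Its messenger RNA has been copied back into the genome many times in evolution, and such retrocopies lack the introns of the parent gene; some stayed coding and others decayed into processed pseudogenes. RPA1 is the large, DNA-binding subunit of replication protein A, which coats single-stranded DNA and brings the checkpoint kinase ATR to it. In these cells each tagged protein was also encoded by a transfected construct. Tags from a construct, from the chromosomal gene and from a near-identical copy therefore cannot be told apart in the peak lists.

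The stretches of 250 bases before the annotated start sites of RBMX and RPA1 are shown because distances below are counted from these sites. None of the 4 lists had a peak in either stretch. The share of such stretches with a peak over all genes was not computed. By the much wider rule of a peak within 10 kb of the gene, 0.404% to 0.896% of all genes had a peak in a list. They are RefSeq sequences of GRCh38.p14, 5′ to 3′ on the gene's own strand, on the minus strand at chrX:136880726-136880975 for RBMX and on the plus strand at chr17:1829755-1830004 for RPA1. Capitals mark matches, on either strand, to the CCAAT box (CCAAT), the TATA box (TATAAA) and the GC box (GGGCGG).
RBMX: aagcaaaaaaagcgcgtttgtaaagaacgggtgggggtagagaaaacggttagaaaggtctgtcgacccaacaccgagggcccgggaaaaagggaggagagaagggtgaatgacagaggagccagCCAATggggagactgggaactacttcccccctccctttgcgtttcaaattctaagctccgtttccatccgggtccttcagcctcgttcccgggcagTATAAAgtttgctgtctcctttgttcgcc
RPA1: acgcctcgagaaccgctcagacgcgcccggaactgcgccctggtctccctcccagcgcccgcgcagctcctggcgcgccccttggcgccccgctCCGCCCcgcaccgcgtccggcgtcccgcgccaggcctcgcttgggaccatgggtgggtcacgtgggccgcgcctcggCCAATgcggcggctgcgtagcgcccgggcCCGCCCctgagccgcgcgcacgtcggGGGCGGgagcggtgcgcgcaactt
RBMX had 1 CCAAT box and 1 TATA box, and RPA1 had 3 GC boxes and 1 CCAAT box. Of 35116 such upstream stretches in the table, 32% held a CCAAT box, 10.7% a TATA box and 42.6% a GC box. These matches describe the letters of the stretches and do not bear on whether a factor bound there. Sequences under the peaks and exon positions were not used here.

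The peaks split by the tagged protein. Both RBMX lists had peaks at RBMX and at copies of RBMX and none at RPA1, and both RPA1 lists had peaks at RPA1 and none at RBMX or any copy. In RBMX replicate 1, 4 of the 10 genes had a peak (RBMX, RBMXL1, RBMXP2 and RBMXP5), where 0.583% of all annotated genes had one within the same distance. In RBMX replicate 2, 5 of the 10 had a peak, with RBMXP4 added, against 0.489% of all genes. RPA1 was the only gene of the 10 with a peak in either RPA1 list, and the shares of all genes were 0.896% in replicate 1 and 0.404% in replicate 2. Of the 5 pseudogenes, 2 had a peak in RBMX replicate 1 and 3 in RBMX replicate 2, against 0.328% and 0.557% of all annotated pseudogenes. RBMXL2, RBMXL3, RBMXP1 and RBMXP3 had no peak in any list.

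None of the 22 peaks overlapped a peak of the other protein. All 5 RBMX peaks of replicate 1 at these genes lacked an RPA1 peak of that replicate, as did 58.5% of the whole list, and all 6 of replicate 2 lacked one, as did 23.7% of the whole list. All 9 RPA1 peaks of replicate 1 lacked an RBMX peak, as did 69.7% of that list, and both of replicate 2 lacked one, as did 12.5% of that list. In replicate 1 most peaks of either list were unshared, so the members' counts there lie closer to the list as a whole than in replicate 2. The nearest RPA1 peak to the RBMX gene was 6.34 Mb away in replicate 1 and 19.1 Mb away in replicate 2, and the nearest RBMX peak to the RPA1 gene was 6.39 Mb and 15.5 Mb away.

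Merging the 4 lists over the chromosomes and the mitochondrial genome gave 859 regions, of which 15 lay at these genes. At least 1 list of each protein held 328 regions, and 0 of the 15 were among them. Only 6 regions (0.698%) were held by both lists of 1 protein and by neither list of the other, and all 6 lay at these genes. Of these, 4 were RBMX regions, at RBMX, RBMXL1, RBMXP2 and RBMXP5, and 2 were RPA1 regions, both inside the RPA1 gene. The remaining 9 regions at these genes were each held by 1 list: 7 by RPA1 replicate 1, inside RPA1, 1 by RBMX replicate 1, inside RBMX, and 1 by RBMX replicate 2, inside RBMXP4.

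**Figure D1:**
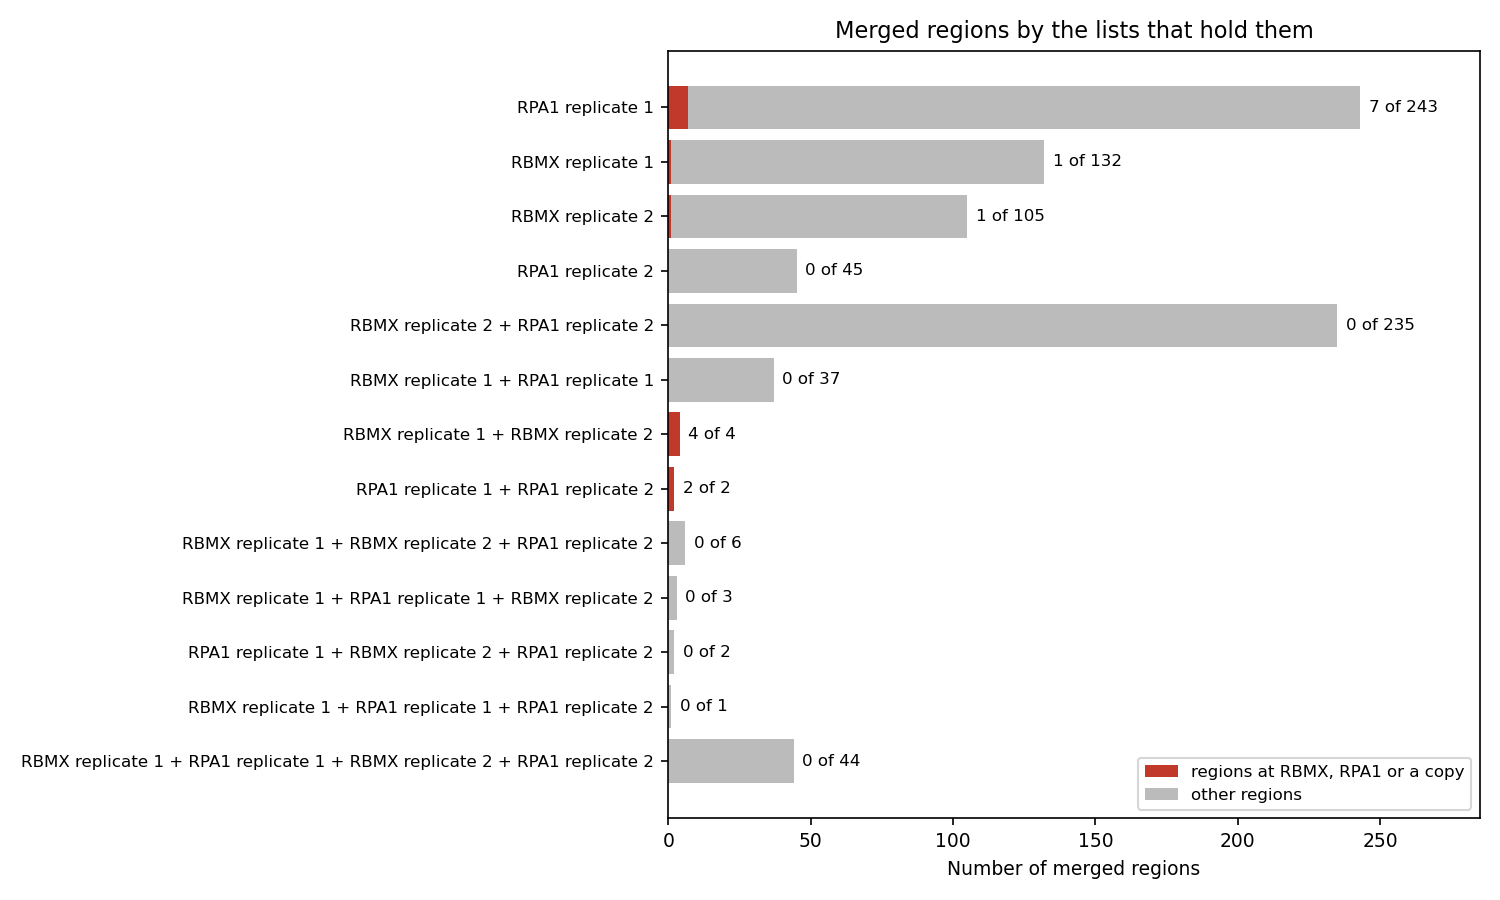
Number of merged regions (horizontal axis) for each combination of lists that held them (vertical axis), with regions at RBMX, RPA1 or an RBMX copy in red and all others in grey, and both counts printed beside each bar. The 4 regions held by both RBMX lists alone and the 2 held by both RPA1 lists alone are all red, and no region held by lists of both proteins is.

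The RBMX gene, 136869192 to 136880725 on the minus strand of chromosome X and 11.5 kb long, had 2 blocks in RBMX replicate 1 and 1 in RBMX replicate 2. Only 0.00502% of annotated genes, 3 genes, were overlapped by 2 or more peaks of RBMX replicate 1. The first block in the direction of transcription, 136874970 to 136876924, was 1955 bp wide and lay 3801 to 5755 bp after the start site. It held 223 tags, or 114 tags per kb (exact Poisson 95% interval 99.6 to 130.1 per kb), with a fold of 6.89. Poisson intervals here and below cover counting error only.

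The other RBMX block of replicate 1, 136873754 to 136874620, was 867 bp wide and began 6105 bp after the start site, with a gap of 349 bp between the blocks. It held 158 tags, or 182 per kb (interval 155 to 213), so it was the denser of the pair, and the intervals did not overlap. Its fold was 8.93. RBMX replicate 2 had a block of 385 bp, 136874090 to 136874474, entirely inside this second block, with summits 74 bp apart. Its summit was covered by 211 tags (interval 183 to 241), with a fold of 138, the 14th largest of 598. The wider first block of replicate 1 had no counterpart in replicate 2, where the smallest summit of any RBMX peak was covered by 13 tags.

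No block reached either end of the RBMX gene: the first 3801 bp after the start site and the last 4562 bp before the gene end were free of peaks in all 4 lists. SNORD61, a small nucleolar RNA gene inside RBMX, lay 1454 to 1526 bp after the start site, and 2274 bp separated it from the nearest block. The blocks covered 24.5% of the RBMX gene in replicate 1 and 3.34% in replicate 2.

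RPA1, 1830005 to 1900082 on the plus strand of chromosome 17 and 70.1 kb long, was cut into 9 separate blocks in RPA1 replicate 1, the most of any annotated gene in that list. Only 6 genes, 0.01% of those annotated, were overlapped by 2 or more peaks of that list, and 1 of these was LOC105371755, a long noncoding RNA gene that overlaps RPA1 and lay under 7 of the same blocks. The remaining 4 genes had 2 peaks each. The blocks lay between 13762 and 67318 bp after the start site, spanned 53557 bp and covered 12.2% of the gene. They were 550 to 2125 bp wide, and the gaps between them ran from 36 bp to 18751 bp, with a median of 3405.5 bp. The first 13762 bp after the start site and the last 2759 bp before the gene end held no block.

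The blocks of RPA1 differed in tags. Block 6 in the direction of transcription, 1878840 to 1880964, was the widest at 2125 bp and held 288 tags (interval 256 to 323), the 7th largest count of the 360 peaks. Block 7, 1888185 to 1889036, held 119 tags (interval 98.6 to 142) in 852 bp. Per kb the order was block 7 at 139.7 tags, block 6 at 136, block 2 at 116, block 5 at 89.6 and block 9 at 74.1. The intervals of blocks 7 (116 to 167), 6 (120.3 to 152) and 2 (89.6 to 149) overlapped one another. Those of blocks 5 (72.0 to 110) and 9 (55.6 to 96.7) overlapped each other and that of block 2, so block 2 was not set apart from them. Blocks 1, 4, 8 and 3 followed at 56.5, 56.1, 51.5 and 47.8 tags per kb. Their intervals overlapped one another and that of block 9.

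Counted from the start site, the 9 RPA1 blocks began at 13762, 14418, 22602, 42274, 45201, 48835, 58180, 61372 and 66590 bp. Blocks 1 and 2 lay 36 bp apart with summits 663 bp apart, and the widest gap followed block 3. Folds ran from 6.45 in block 5 to 17.6 in block 3, which held only 44 tags; block 6, with its 288 tags, had a fold of 6.62. In replicate 1 the background of a peak was taken from the same library over up to 10000 bp around it, so tags of neighbouring blocks could enter the background of each. Fold and tag count ordered these blocks differently; the part of the local background and of block width in this was not tested.

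RPA1 replicate 2 had 2 blocks in RPA1, against 9 in replicate 1, and 0.0251% of annotated genes were overlapped by 2 or more peaks of that list. The blocks lay at 1879207 to 1879707 and at 1888652 to 1888868, inside blocks 6 and 7 of replicate 1, the pair with the highest densities there. Their summits fell 2 bp and 3 bp from those of replicate 1. They were 501 and 217 bp wide, and their summits were covered by 38 tags (interval 26.9 to 52.2) and 40 tags (interval 28.6 to 54.5). Folds were 19.95 and 20.96, ranks 199 and 181 of 527. The smallest summit of any peak in that list was covered by 16 tags. The other 7 blocks of replicate 1 had no called counterpart at the depth and threshold of replicate 2. Coverage at those 7 places in replicate 2 was not examined, and why no peak was called there was not tested. At a stricter threshold in replicate 1, a −log10 p of at least 12, 5 of the 9 blocks were left: blocks 2, 3, 6, 7 and 9.

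**Figure D2:**
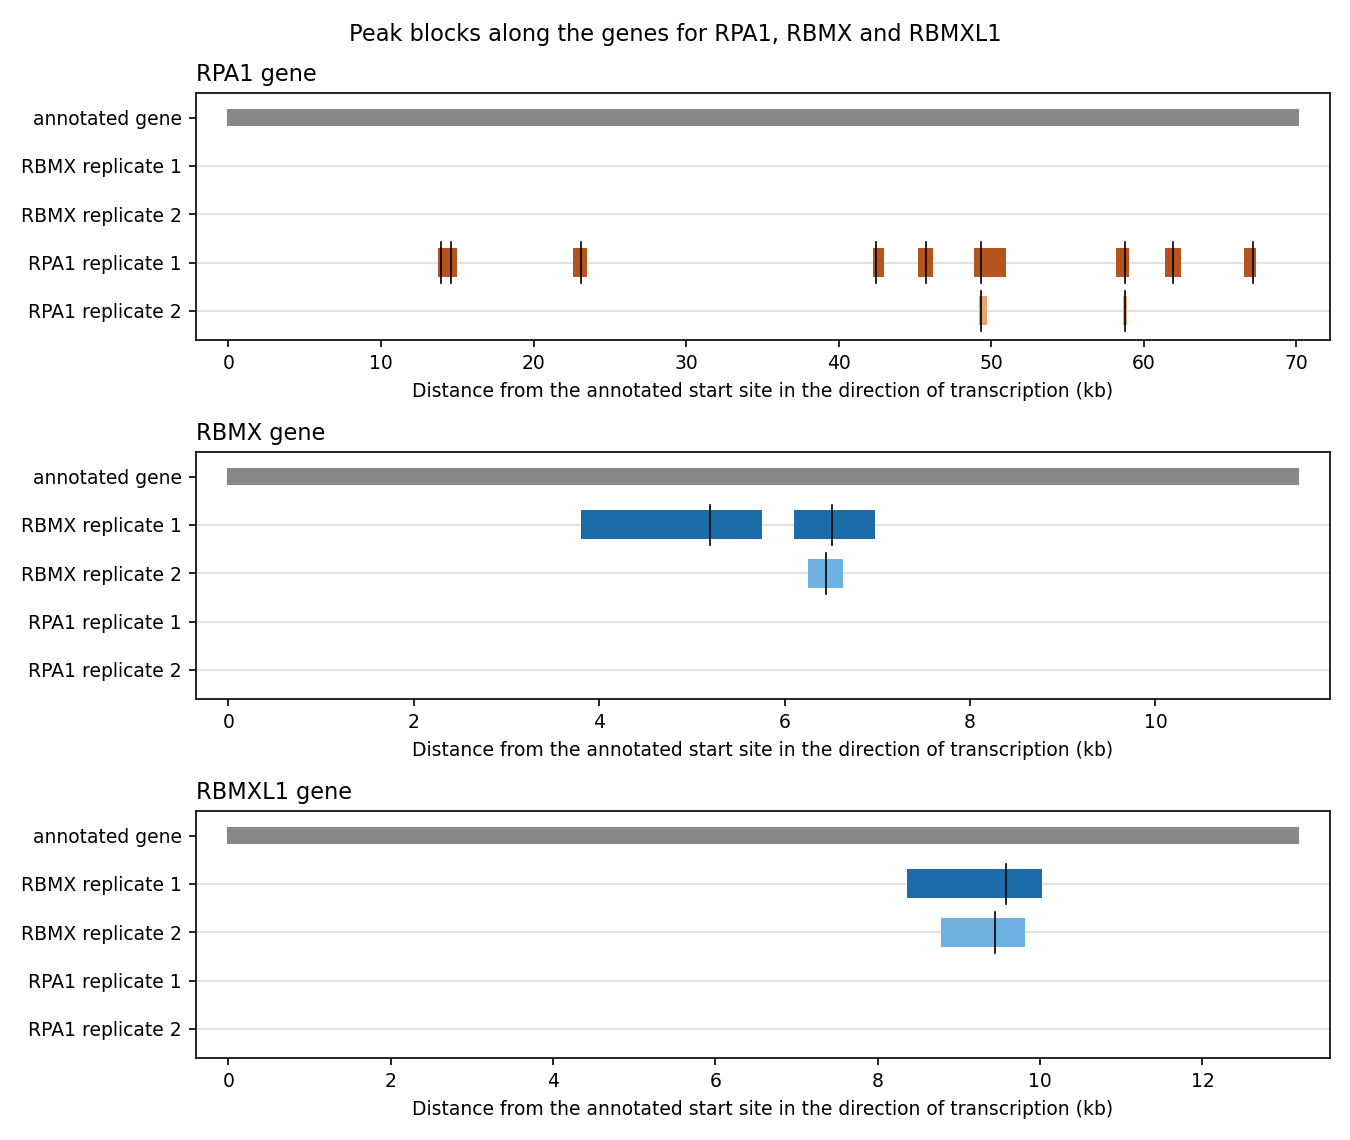
Peak blocks along RPA1, RBMX and RBMXL1 by distance from the annotated start site in kb (horizontal axis), with 1 row per list; coloured boxes are peaks to scale, black lines are summits and the grey bar is the annotated gene. RPA1 carries 9 blocks in RPA1 replicate 1, of which the first 2 appear joined because 36 bp separate them, and blocks at 2 of these places in replicate 2; RBMX and RBMXL1 carry blocks in the RBMX lists alone.

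RBMXL1 is a coding retrocopy of RBMX. It lay at 88979456 to 88992629 on the minus strand of chromosome 1, inside KYAT3, a gene for an aminotransferase, and the peaks counted for RBMXL1 lay in KYAT3 too. RBMX replicate 1 had a block of 1665 bp there, 88982600 to 88984264, with 121 tags, or 72.7 per kb (interval 60.3 to 86.8), and a fold of 11.98. RBMX replicate 2 had a block of 1039 bp inside it, 88982817 to 88983855, whose summit was covered by 221 tags (interval 193 to 252), with a fold of 145. That was the 11th largest fold of the 598 peaks and the largest of the 6 peaks at these genes in that list. The blocks began 8365 and 8774 bp after the annotated start site, and their summits were 145 bp apart. Unlike RBMX in replicate 1, RBMXL1 had an unbroken block in each RBMX list.

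RBMXP2, a pseudogene at 30688950 to 30690960 on chromosome 9 with no other annotated gene within 10 kb, was the copy with the largest part under a peak. In RBMX replicate 1 a block of 1510 bp, 30688826 to 30690335, covered 68.9% of the 2011 bp pseudogene and reached 124 bp beyond its left edge. It held 103 tags, or 68.2 per kb (interval 55.7 to 82.7), and had a fold of 22.4, the 8th largest of 258. Replicate 2 had 2 blocks of 364 and 292 bp inside it, 257 bp apart, and 0.0335% of annotated genes were overlapped by 2 or more peaks of that list. Their summits were covered by 138 tags (interval 116 to 163) and 94 tags (interval 76.0 to 115), with folds of 90.5 and 61.9.

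RBMXP5, at 65955624 to 65957343 on chromosome X, again had a block in both RBMX lists. Replicate 1 had 43 tags in 934 bp, or 46.0 per kb (interval 33.3 to 62.0), yet a fold of 22.4, the 9th largest of the list. In replicate 2 a block of 476 bp had 124 tags over its summit (interval 103 to 148) and a fold of 81.4, and the summits lay 110 bp apart. The replicate 2 block ran past the right edge of the replicate 1 block, so 95.8% of it was shared. The blocks covered 54.3% and 27.7% of the pseudogene.

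RBMXP4, at 109346133 to 109347610 on chromosome 4, had a peak in RBMX replicate 2 alone. This block of 235 bp, 109347113 to 109347347, had 41 tags over its summit (interval 29.4 to 55.6) and a fold of 27.4, rank 154 of 598. It was the narrowest RBMX block at these genes. RBMX replicate 1 had its nearest peak 13.5 Mb from RBMXP4, and no peak of that list held fewer than 14 tags.

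From the left edge of each annotation, the summits of the replicate 2 blocks were at 484 and 1070 bp in RBMXP2, 1152 bp in RBMXP5 and 1051 bp in RBMXP4. The annotations differ in length, and the strand of the pseudogenes was not given in the sources used here, so these offsets could not be compared with one another or placed along the RBMX transcript.

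**Figure D3:**
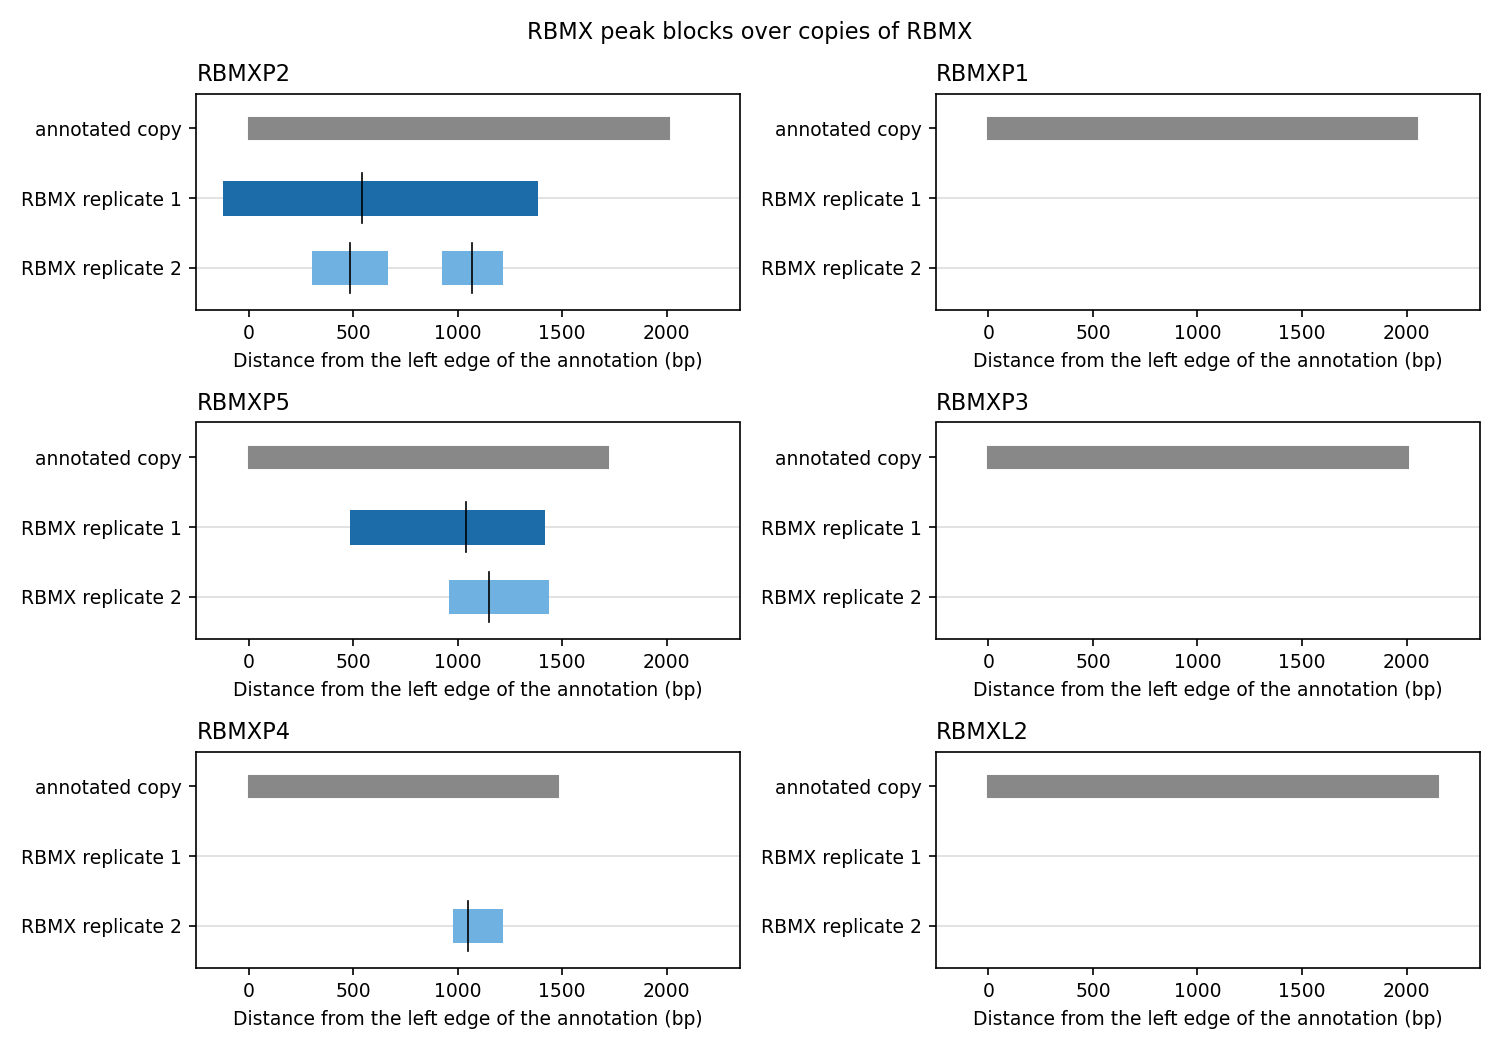
RBMX peak blocks over 5 pseudogenes and RBMXL2 by distance in bp from the left edge of each annotation (horizontal axis), with 1 row for each RBMX list; boxes are peaks to scale, black lines are summits and grey bars are the annotated copies. RBMXP2 and RBMXP5 have blocks in both lists, RBMXP4 in replicate 2 alone, and RBMXP1, RBMXP3 and RBMXL2 in neither; no RPA1 list had a peak at any of these copies.

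RBMXL2, the testis form hnRNP G-T, lay on chromosome 11 at 7088998 to 7091148 inside NLRP14, and its nearest peak of any list was 3.45 Mb away, in RBMX replicate 1. RBMXL3, another coding copy, lay on chromosome X at 115189410 to 115192868, with its nearest peaks 0.534 Mb away in both replicate 2 lists. RBMXP1 on chromosome 6 and RBMXP3 on chromosome 11 had their nearest peaks 5.16 Mb and 7.10 Mb away, both in RBMX replicate 1. A gene with no peak is one below the callers' thresholds: no called peak held fewer than 14 tags in either replicate 1 list, and no summit was covered by fewer than 13 tags in RBMX replicate 2 or 16 in RPA1 replicate 2.

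The order of the RBMX genes by depth was similar but not identical in the 2 RBMX lists. Per kb in replicate 1 it was RBMX, RBMXL1, RBMXP2 and RBMXP5, and each RBMX block lay above RBMXL1 with intervals that did not overlap. RBMXL1 (72.7 per kb) and RBMXP2 (68.2 per kb) had overlapping intervals, as had RBMXP2 and RBMXP5. At the summit in replicate 2, RBMXL1 with 221 tags and RBMX with 211 had overlapping intervals. Both stood above RBMXP2 with 138 tags, whose interval overlapped that of RBMXP5 with 124, and RBMXP4 with 41 tags was lowest, with an interval below all the others. These are counts of tags assigned by the aligner, and how reads that match several copies were assigned is not given in the sources used here. At most 1 tag per position was kept, and the largest summit of RBMX replicate 2 was covered by 399 tags. This limit can hold down the highest counts and so narrow the differences between genes. The Poisson intervals do not account for it, and its effect on the order was not tested. How many copies of each locus these cells carry was not examined, and the tag counts were not corrected for it.

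**Figure D4:**
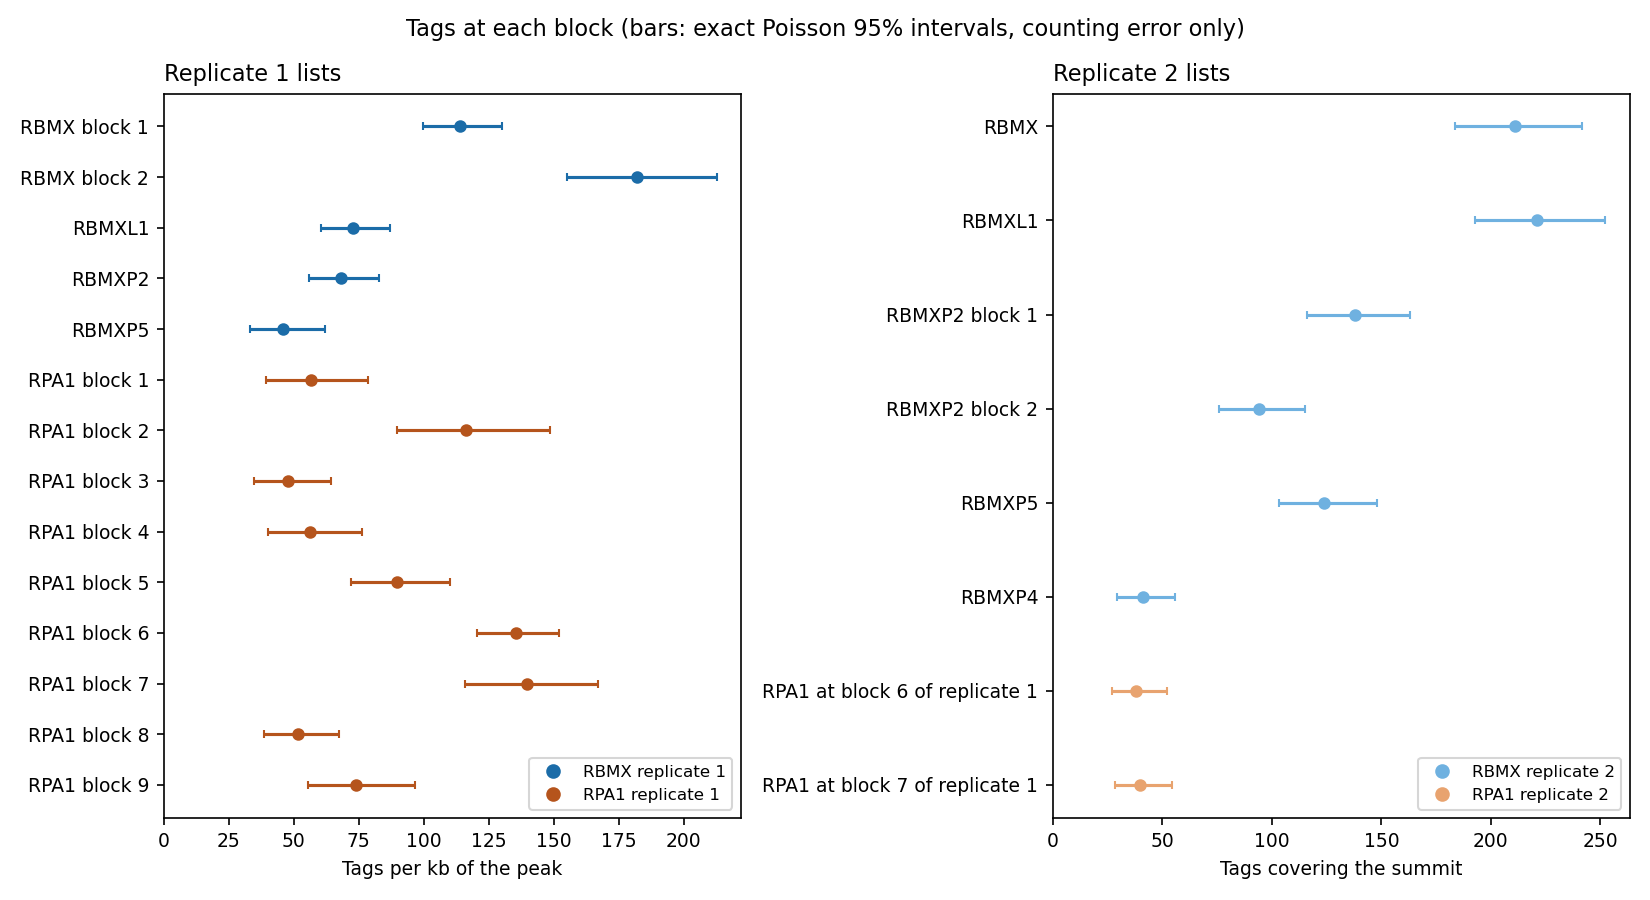
Tags at each block: tags per kb of the peak in the replicate 1 lists (left) and tags covering the summit in the replicate 2 lists (right), with points for values and bars for exact Poisson 95% intervals. In replicate 1 the second RBMX block is the densest at 182 per kb and RPA1 blocks 6 and 7 stand at 136 and 139.7; in replicate 2 RBMX and RBMXL1 stand at 211 and 221 tags and the RPA1 blocks at 38 and 40.

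All 22 peaks had a fold above the median of their own list. In RBMX replicate 1 the 5 peaks had a median fold of 11.98 against 6.365 for the whole list, and in RBMX replicate 2 the 6 peaks had a median of 86.0 against 17.6. In RPA1 replicate 1 the 9 blocks had a median of 8.43 against 6.155, and in RPA1 replicate 2 the 2 blocks had a median of 20.5 against 16.9. Replicate 2 folds of RBMX, RBMXL1, RBMXP2 and RBMXP5 were within the 57 largest of 598, and the RPA1 blocks ranked 181st and 199th of 527. Replicate 1 ranked RBMXP2 and RBMXP5, the only pseudogenes with a peak there, above both RBMX blocks by fold, although RBMX had more tags per kb. The 2 RBMX blocks lay 349 bp apart, so tags of each could enter the local background of the other. The part of this in the ranks was not tested. By tag count the 2 RBMX blocks were 14th and 19th of 258, and by fold they were 113th and 75th; RBMXP5 was 79th by tags and 9th by fold. In replicate 2 each peak at these genes had the same rank by fold as by summit tags, because 1 background level served the whole list. Fold and summit tags are therefore not 2 separate readings in replicate 2. The folds are the peak callers' values as the authors deposited them, and they compare peaks within a list, not between lists.

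**Figure D5:**
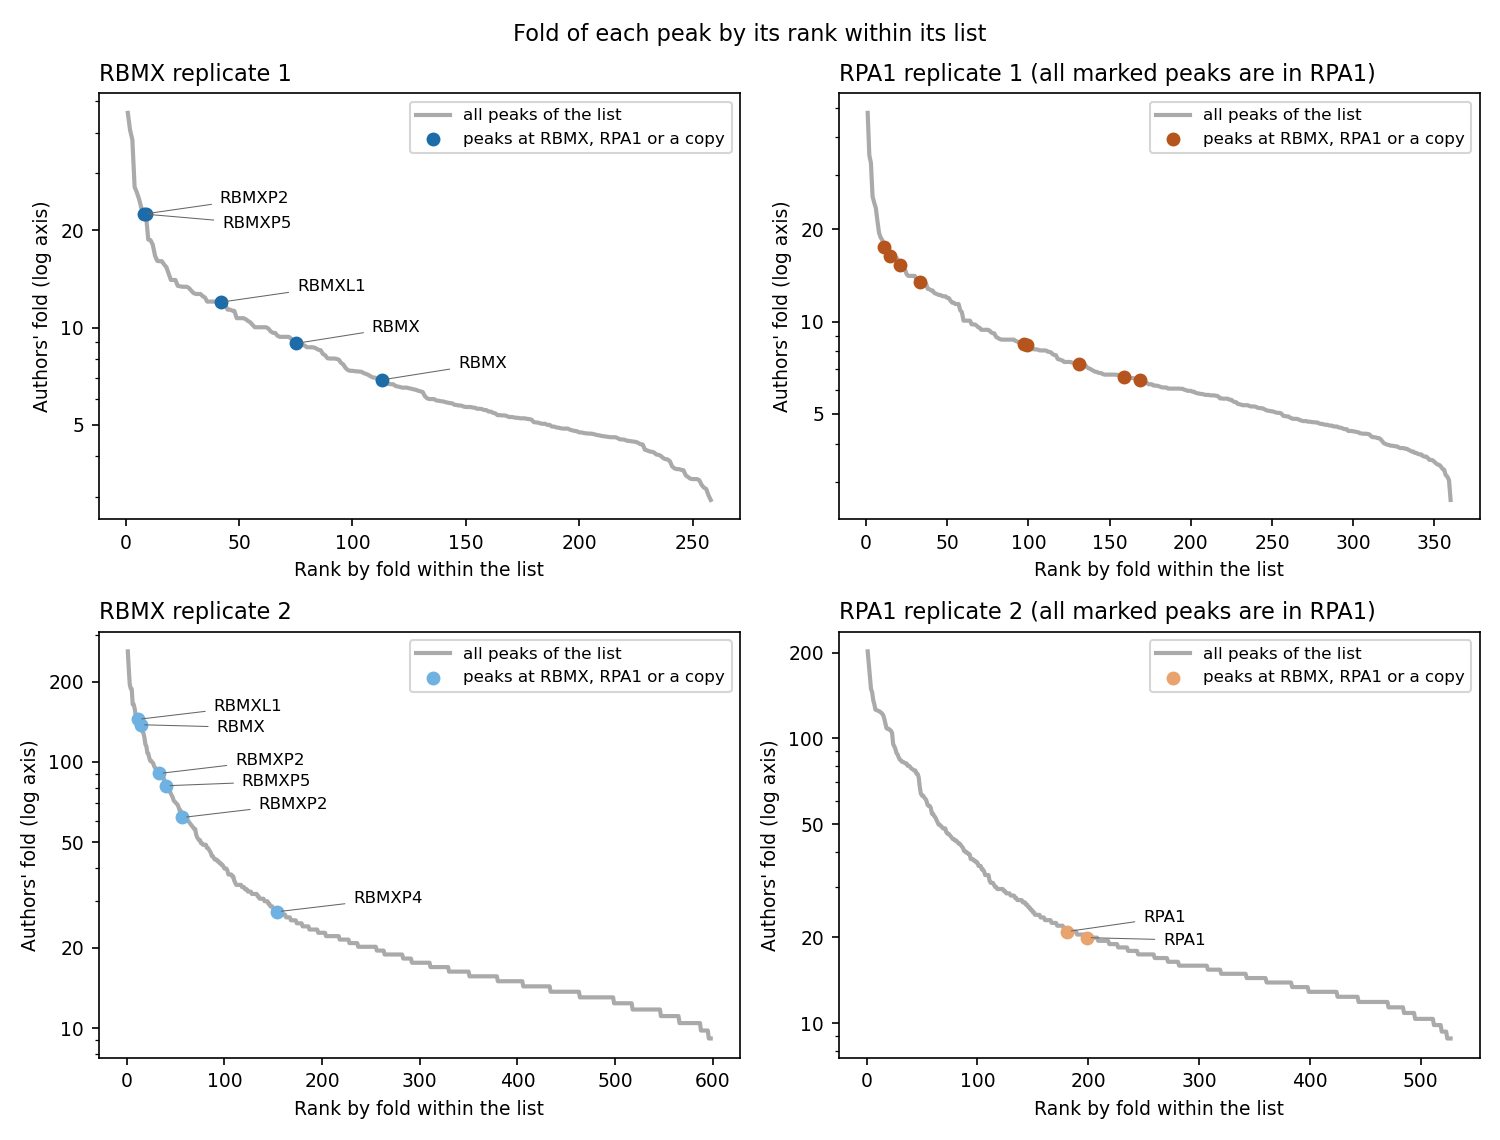
Authors' fold of every peak (vertical axis, log scale) by its rank in each of the 4 lists (horizontal axis), in grey, with peaks at RBMX, RPA1 or an RBMX copy as coloured points. The points at RBMXL1 (fold 145) and RBMX (fold 138) lie at the top of RBMX replicate 2, and those at RPA1 (folds 19.95 and 20.96) lie further down RPA1 replicate 2, at ranks 199 and 181 of 527.

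Between replicates, 4 of the 5 RBMX peaks at these genes in replicate 1 had an overlapping partner in the RBMX list of replicate 2, and 5 of the 6 in replicate 2 had one in replicate 1. Over all peaks on the chromosomes and the mitochondrial genome the shares were 25.8% and 17.8%. For RPA1, 2 of the 9 blocks of replicate 1 overlapped a peak of replicate 2, beside 15% of all peaks, and both blocks of replicate 2 overlapped one of replicate 1, against 17.6%. The block widths differed with the replicate. The median width of the peaks at these genes was 1510 bp and 852 bp in replicate 1, for RBMX and RPA1, and 374.5 bp and 359 bp in replicate 2, beside 888.5, 884.5, 332 and 383 bp for all peaks of the same lists in that order. With a required overlap of 50% of both peaks, only RBMXL1 of the 4 RBMX genes still had matching blocks.

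The genes of 4 related lists, which hold neither the transfected genes nor the copies of RBMX, had no peak in any of the peak lists. None of 9 genes and pseudogenes of the RPA complex and its import factor had a peak within 10 kb, RPA2 and RPA3, the smaller subunits, and RPA4 among them. The same held for all 11 genes of the RBM family nearest RBMX, including RBM3, CIRBP and the RBMY1 genes of the Y chromosome. It also held for all 27 hnRNP genes examined. The last list had 13 genes, also without a peak: genes of the ATR checkpoint, including ATR, ATRIP and TOPBP1, and the topoisomerase I gene TOP1. As 0.404% to 0.896% of all genes had a peak, a count of 0 in lists of this size is close to the background. SNORD61 met the distance rule in both RBMX lists only through the RBMX blocks described above.

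Few other places had the pattern of RBMX and its copies. Outside the genes within 10 kb of the same blocks (KYAT3, LOC124904215 and SNORD61), the only annotated locus with an RBMX peak within 10 kb in both replicates and an RPA1 peak in neither was the pseudogene REXO1L10P. Its folds were 14.0 in replicate 1 and 14.4 in replicate 2, with 21 tags in the replicate 1 peak and 21 over the replicate 2 summit. These peaks lay beside the pseudogene and did not overlap each other, and they did not count among the 6 regions above.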

How the data were processed

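Peaks came from 4 lists, called per sample; 2 input samples were not analysed here. The build was hg38, per the submitters' processing notes. Replicate 1 used MACS 1.4.2 without a control at p 1e-05, and replicate 2 used MACS2 2.2.4 with an input, p 1e-12 and no local background, so the input set 1 genome-wide level, per the file headers. At most 1 tag per position was kept, and tags were extended to 200 bp. For replicate 1 the authors deposited whole-number tag counts within each peak and a score, 10 times the −log10 of p, divided by 10 here. In replicate 2 the deposited signal is the pileup at the summit, scaled to the input; divided by that scale, summits gave whole tags with a largest deviation of 0.0073 tags. The −log10 p-value and the fold, a ratio to background, are the caller's, as deposited. A replicate 1 summit is its start plus the deposited offset.

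Overlaps (at least 1 bp), windows and exact Poisson intervals at 95% were computed with SciPy 1.17.1, NumPy 2.4.6 and pandas 2.3.3 in Python 3.11.15, drawn with matplotlib 3.10.9 and tested on simulated data. Merging left out unplaced sequences, whose names differ between replicates. The number 2 of a replicate is in the labels; the number 1 follows accession order. Lists of the same number share caller, threshold and tag length, and whether they share cultures or days is not stated. Genes came from RefSeq GRCh38.p14; exons were not used here. All 10 genes and all genes of the fixed lists matched by symbol. Genes were named by rule: the 10 genes, genes under their peaks, fixed lists with a peak, and the 5 loci most alike in pattern by RBMX fold, of which 1 existed outside the members' own windows. The genes and lists were chosen with earlier results of these data known. No test between groups was made: a gene without a peak has no value in a list, and the genes were chosen with earlier results known.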

Additional observations from a re-analysis of the deposited data

How the results depend on the processing

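Of 106 alternative values, 78 stayed within 1.5 times the count (or within the binomial interval of a share) and 28 did not. Some of the 78 could not have moved, so the tally does not measure how stable the results are. A −log10 p limit of 12 removed no peak of replicate 2, where the smallest values were 14.2 for RBMX and 12.8 for RPA1. Every peak at a member had a fold above its list median, so a limit at that median could not change the members' counts. Values without one replicate only repeat those of the other replicate. Requiring overlap with the gene body left every count of members and of their peaks as it was, removed SNORD61 (0 genes of the fixed lists in either RBMX list) and lowered the share of all genes with a peak to 0.286% and 0.255% for RBMX and 0.459% and 0.199% for RPA1, in replicates 1 and 2. A window of 50 kb raised these shares to 1.52%, 0.851%, 2.48% and 0.733% in that order, and brought in 2 genes of the fixed lists, HNRNPUL2 and HNRNPA1, in RPA1 replicate 1. A −log10 p of at least 12 left 5 of the 9 RPA1 blocks of replicate 1 and 0.0519% and 0.0586% of all genes in replicate 1, for RBMX and RPA1, but the same number of members per list. Keeping peaks at or above the median fold gave 0.183% and 0.352% for RBMX and 0.332% and 0.275% for RPA1 and removed no peak at a member. An overlap of 50% of both peaks left 1 member, RBMXL1, with matching RBMX blocks. Without one replicate, peaks at members numbered 5 to 6 for RBMX and 2 to 9 for RPA1, those RBMX peaks without an RPA1 partner 5 to 6, and the share of all genes with a peak was 0.489% to 0.583% for RBMX (0.988% with both) and 0.404% to 0.896% for RPA1 (1.23% with both). In 3 alternatives chosen after seeing the data (the −log10 p limit, the fold limit and merging peaks within 500 bp), the regions held by both lists of 1 protein and neither of the other were again 6, and 6 lay at members. The −log10 p and fold limits could not remove these 6 regions, because their peaks in both lists passed both limits. No paired analysis was possible because the lists hold peaks called per sample and no result comes from a test. Depth limits what an absent peak shows: a gene without one is below the thresholds given in the report.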
